A study of Mus musculus with 9 samples.

Results

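The E2F, *Foxm1* and DREAM regulators described here are 10 genes, *E2f1*, *E2f2*, *E2f3*, *E2f4*, *E2f7*, *E2f8*, *Rbl1*, *Foxm1*, *Mybl2* and *Lin9*, chosen by gene name from the 15184 genes of the deposited table. All 10 were in the table, and all 10 had more than 10 normalized counts in every library. The RNA-Seq came from mouse embryonic fibroblasts (MEFs), primary cells grown from embryos, in 9 libraries. The 3 groups of 3 libraries were named Empty, SAM1 and SAM2 in their titles, and each was compared with the others. All cells were wild-type MEFs transduced with lentiMPHv2 and lentiSAMv2, which together carry a dead Cas9 that recruits transcriptional activators (SAM), and were selected with blasticidin and hygromycin. Empty carries the genotype label Empty vector, and the methods describe the control as lentiSAMv2 with a nontargeting guide. The sequence printed there for this guide is the same as that printed for an *Hnrnpk* guide (sgHnrnpk2). As printed, the control guide cannot be told apart from it. SAM1 and SAM2 both carry the label Hnrnpk_SAM, for guides meant to activate *Hnrnpk*, which encodes an RNA-binding protein. They are called lines below. The labels do not say which guide each line carries, and the sources do not say whether the 3 libraries of a group came from separate cultures, so p-values measure the spread between these libraries, which may be technical.

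E2F proteins bind the promoters of cell cycle genes with a DP partner, and the pocket proteins (RB, p107, p130) hold them in check until cyclin-dependent kinases phosphorylate the pocket. In resting cells p130 or p107, E2F4 or E2F5, a DP protein and the MuvB core (LIN9, LIN37, LIN52, LIN54, RBBP4) form the DREAM complex, which keeps cell cycle genes silent. In cycling cells MuvB instead joins MYBL2 (B-MYB) and then FOXM1, and switches on the genes of G2 and mitosis, while E2F7 and E2F8 repress E2F genes as S phase proceeds.

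The libraries held 41759636 to 49026626 reads on the listed genes. The chi-square per gene between libraries of a group, about 1 under counting noise alone, was 10.7 to 12.9 in Empty and 1.53 to 2.28 in SAM2. In SAM1 it was 1.45 between libraries 1 and 3, and 7.83 and 9.3 for the pairs with library 2. The fits share 1 estimate of the spread over these unequal groups. Whether the spread is technical was not tested. *Hnrnpk* itself had 25773 ± 621 (SD, n = 3) normalized counts in Empty, 23922 ± 264 in SAM1 and 26563 ± 321 in SAM2, means and SDs being over the 3 libraries of a group here and below. Its pooled log2 fold change was -0.032 (limma adjusted p = 0.642), or 0.159 (0.0199) after quantile normalization. By line it was called lower in SAM1 (-0.107, limma adjusted p = 0.00252) and was not called in SAM2 (0.044, limma adjusted p = 0.159). The groups are therefore named by their labels and not by its level. The summed counts of 12 fibroblast markers ran from 1160286 to 1260520 in Empty, 927155 to 984856 in SAM1 and 1269172 to 1310002 in SAM2. Of these, *Pdgfrb* was higher in the pooled comparison (log2 fold change 0.74), and *Dcn* (-2.17), *Pdgfra* (-0.71) and *Thy1* (-0.48) were lower, while the fits by line called 3 of the 12 higher and 9 lower in SAM1, and 3 higher and 5 lower in SAM2. Of 16 markers of other cell types, 9, among them *Epcam*, *Ptprc*, *Myod1* and *Sox10*, were not in the table, and the other 7 summed to 951 to 1071 in Empty, 6053 to 6356 in SAM1 and 1706 to 1848 in SAM2. Of the 7, 3 were higher in the pooled comparison, *Kdr* (2.92), *Tubb3* (1.32) and *Cd68* (0.55), and *Kdr* made up most of the SAM1 sum. By line, 6 of the 7 were higher in SAM1, and 3 were higher and 1 lower in SAM2. Their part in the results below was not tested.

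RefSeq promoter windows (build GRCm38.p6, 250 bases before to 50 after a listed transcription start) were found for 7 of the 10 genes. None was found for *Foxm1*, *E2f4* or *Lin9*. The sequences of the repressors *E2f7* and *E2f8*, of *Rbl1* and of *E2f3* are shown as examples. They hold letters of the elements that E2F and MuvB complexes are known to bind, as does *E2f2*, which is not shown. Capitals mark matches, on either strand, to E2F letters (the 7 bases TTCCCGC or TTCGCGC or TTGCCGC or TTGGCGC) or CHR letters (TTTGAA or TTCGAA). Each is written 5′ to 3′ on the gene's strand and ends just before the start site.
*E2f7*, chr10:110745189-110745438, plus strand: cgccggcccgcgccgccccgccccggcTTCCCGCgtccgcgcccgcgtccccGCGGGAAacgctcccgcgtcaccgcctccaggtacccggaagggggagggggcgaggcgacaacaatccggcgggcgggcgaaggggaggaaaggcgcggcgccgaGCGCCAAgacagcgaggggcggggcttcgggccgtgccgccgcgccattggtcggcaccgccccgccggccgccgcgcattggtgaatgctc
*E2f8*, chr7:48881597-48881746, minus strand: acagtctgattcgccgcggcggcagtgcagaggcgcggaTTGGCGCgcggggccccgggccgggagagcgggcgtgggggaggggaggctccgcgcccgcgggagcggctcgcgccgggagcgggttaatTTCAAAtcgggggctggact
*Rbl1*, chr2:157204535-157204684, minus strand: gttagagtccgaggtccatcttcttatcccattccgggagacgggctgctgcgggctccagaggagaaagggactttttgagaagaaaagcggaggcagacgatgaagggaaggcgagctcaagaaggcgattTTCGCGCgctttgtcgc
*E2f3*, chr13:29986064-29986213, minus strand: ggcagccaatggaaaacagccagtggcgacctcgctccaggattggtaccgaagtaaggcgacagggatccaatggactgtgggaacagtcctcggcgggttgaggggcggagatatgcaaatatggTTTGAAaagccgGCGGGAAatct
*E2f7* held 3 E2F matches and no CHR match in its window. *E2f8* held 1 of each, and *E2f8* also had a CCAAT match on the minus strand that overlaps its E2F match. *E2f3* held 1 E2F and 1 CHR match in the stretch shown and a further E2F match after the start. Its second window, which lies downstream of the first and is not shown, held no E2F, CHR or CCAAT match. *Rbl1* held a single E2F match. *E2f2* held 1 E2F match after the start in its first window and 1 CHR match in its second, which lies downstream of the first. Over all 9 windows of the 7 genes, 5 held an E2F match, 3 a CHR match and 5 a CCAAT match, whereas 9.57% of all 32851 windows held E2F, 19.2% CHR and 37.4% CCAAT. No match to these exact letters was found in the windows of *E2f1* or *Mybl2* either. Whether the listed starts are the main ones was not checked, and that of *E2f1* may lie inside its gene. Variants of the letters were not searched, so these promoters are not shown to lack E2F or CHR elements. These are letter matches in short windows and no measure of binding.

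Of the 10 regulators, 8 rose in the libraries labelled Hnrnpk_SAM, 1 (*E2f4*) fell and 1 (*E2f3*) did not pass the test. The largest pooled change was that of *Foxm1*, at 2.96-fold. The test was limma on log2(normalized count + 1) with Benjamini-Hochberg adjustment over all genes and a threshold of 0.05, and fold changes are on that scale. Across all genes 26.8% were called higher and 27.0% lower in this comparison of 6 libraries with 3. The regulators were chosen with earlier results of these data known, so their count is a description. The median log2 fold change of the regulators was 0.78, beside 0.0087 for all genes. In 8 of the 10 all 6 Hnrnpk_SAM libraries lay above the 3 Empty libraries, as in 25.9% of all genes, and in 1 all 6 lay below, as in 27.2%. In bulk RNA a larger share of cells in a cell cycle phase and more RNA per cell cannot be told apart.

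Each line was also compared with Empty on its own, and the 2 comparisons share the 3 Empty libraries. In SAM1, 8 regulators were called higher and 1 lower, where 37.3% and 36.9% of all genes were. In SAM2 the counts were again 8 and 1, where 35.2% and 35.3% of all genes were called. The median log2 fold change of the regulators was 0.91 in SAM1 and 0.66 in SAM2.

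**Figure D1:**
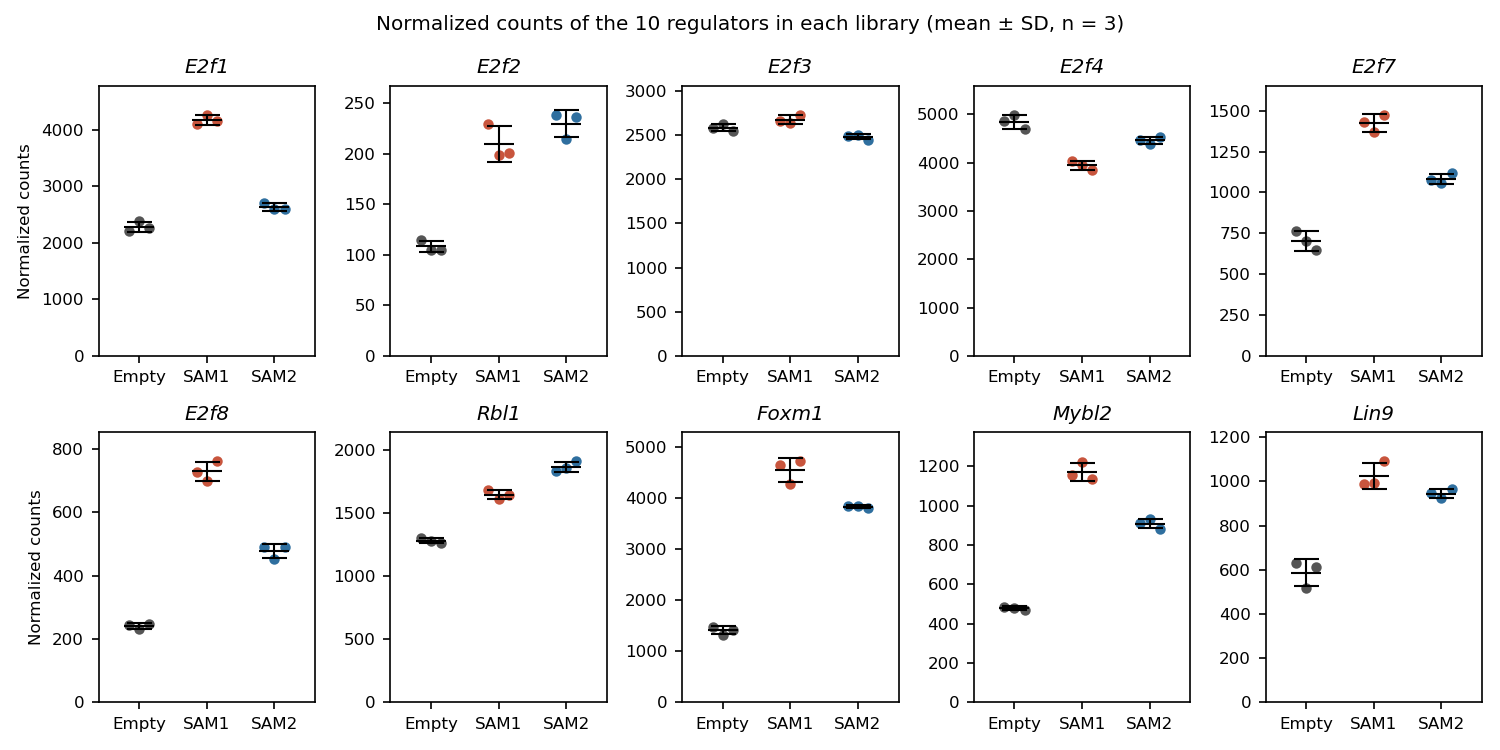
Normalized counts (vertical axis, from 0) of the 10 regulators in each of the 9 libraries, by group (horizontal axis). Points are libraries and bars are mean ± SD of 3; in 8 genes every SAM1 and SAM2 point lies above the Empty points, in *E2f4* every one lies below, and in *E2f3* the groups stay close together.

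*Foxm1*, on the plus strand of chromosome 6 (128339518 to 128353147, GRCm39 like all gene positions here), encodes the forkhead factor that drives G2 and mitotic genes. It had 1480, 1327 and 1426 normalized counts in Empty, 4658, 4277 and 4719.8 in SAM1 and 3851, 3845 and 3811 in SAM2. The highest Empty library lay far below the lowest Hnrnpk_SAM library, and SAM1 lay above SAM2 without overlap. The log2 fold change was 1.69 (standard error 0.0455) in SAM1 and 1.44 (0.0455) in SAM2, and 1.57 in the pooled comparison (limma adjusted p = 5.25e-07).

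*Mybl2*, on chromosome 2 from 162896435 to 162926614 on the plus strand, encodes the MYB protein that joins MuvB in S phase. Its counts were 487, 479 and 468.5 in Empty, 1158, 1224 and 1136 in SAM1 and 910.9, 930.9 and 883.3 in SAM2. The 3 groups did not overlap, with SAM1 highest. The log2 fold change was 1.29 (0.0456) in SAM1 and 0.92 (0.0456) in SAM2, and 1.11 pooled (limma adjusted p = 3.23e-05).

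*Lin9*, on chromosome 1 from 180468309 to 180518259 on the plus strand, encodes a MuvB subunit found both in DREAM and with MYBL2. Its counts were 631.2, 517.9 and 614.5 in Empty, 989, 991.4 and 1090.8 in SAM1 and 947.5, 923.5 and 965 in SAM2. All 6 Hnrnpk_SAM libraries lay above Empty, with SAM1 just above SAM2 and no overlap between the lines. The pooled log2 fold change was 0.75 (standard error 0.0761, limma adjusted p = 3.18e-05). SAM2 minus SAM1 was -0.11 on the log2 scale with a 95% interval of -0.26 to 0.036.

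Of the activator E2Fs, which drive entry into S phase, *E2f1* and *E2f2* rose while *E2f3* did not pass the test. *E2f1*, on chromosome 2 from 154401326 to 154411812 on the minus strand, had 2211, 2389.7 and 2255 normalized counts in Empty, 4099, 4265 and 4163 in SAM1 and 2712, 2593 and 2605 in SAM2. The SAM2 libraries lay just above Empty and far below SAM1. The log2 fold change was 0.87 (0.0365, limma adjusted p = 1.28e-10) in SAM1 and 0.21 (0.0365, limma adjusted p = 2.01e-04) in SAM2. In the pooled comparison, where the 2 lines count as 1 group, it was 0.54 (limma adjusted p = 0.0379). That pooled call was lost without any 1 of the Empty or SAM1 libraries (adjusted p from 0.0596 to 0.108), whereas the calls within each line kept their side under every alternative tried.

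*E2f2*, on chromosome 4 from 135899585 to 135923368 on the plus strand, was the least abundant of the 10. It had 114.6, 105 and 105.1 counts in Empty, 229.7, 198.5 and 200.2 in SAM1 and 238.4, 214.2 and 236.6 in SAM2. It had 90 reads in the library with the fewest, where counting alone gives a coefficient of variation of 10.5%. The values of both lines lay well above those of Empty and overlapped each other. The pooled fold was 2.02 (log2 fold change 1.01, standard error 0.0916, limma adjusted p = 1.46e-05), and SAM2 minus SAM1 was 0.13 with a 95% interval of -0.055 to 0.32 (0.233 and limma adjusted p = 0.0411 after quantile normalization).

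*E2f3*, on chromosome 13 from 30090558 to 30170046 on the minus strand, had 2585, 2626 and 2542 counts in Empty, 2658, 2639.6 and 2729 in SAM1 and 2493, 2499 and 2450.5 in SAM2. SAM1 lay just above Empty and SAM2 just below it. The pooled log2 fold change was -0.0045 with a 95% interval of -0.10 to 0.094 (limma adjusted p = 0.938). Against Empty it was 0.0498 in SAM1 (limma adjusted p = 0.159) and -0.0589 in SAM2 (limma adjusted p = 0.103), and the lines themselves differed by -0.11 (limma adjusted p = 0.008). With libraries scaled to equal sums the values against Empty were 0.192 in SAM1 (limma adjusted p = 7.44e-05) and 0.0448 in SAM2 (0.207), and after quantile normalization 0.101 (0.00913) and -0.0727 (0.0488). The deposited table gives 1 row for *E2f3*, so its transcripts from different promoters, of which 2 windows are listed, are summed.

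The atypical repressors *E2f7* and *E2f8*, which bind DNA without a DP partner and shut down E2F genes, both rose. *E2f8*, on chromosome 7 from 48516176 to 48531452 on the minus strand, had 245.5, 231.1 and 247.7 counts in Empty, 725.2, 699.1 and 759.8 in SAM1 and 488.6, 452.5 and 489.9 in SAM2. Its 3 groups did not overlap, and its change in SAM1 was second to that of *Foxm1* among the 10. The log2 fold change was 1.59 (0.0588) in SAM1, 0.98 (0.0588) in SAM2 and 1.28 pooled (limma adjusted p = 2.64e-04). The lncRNA *Gm2788* overlaps *E2f8* on the opposite strand over 3939 bases and had 12.85 to 15.8 counts in Empty, 24.69 to 31.3 in SAM1 and 13.85 to 18.5 in SAM2. The strand setting of the counting is not given in the sources used here, and the levels of *Gm2788* are a small fraction of those of *E2f8*.

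*E2f7*, on chromosome 10 from 110581300 to 110623245 on the plus strand, had 766.2, 702.7 and 644.9 counts in Empty, 1433, 1367 and 1474 in SAM1 and 1073, 1056 and 1116 in SAM2. The groups again stood apart in the order Empty, SAM2, SAM1. Its log2 fold change was 1.02 (0.0584) in SAM1, 0.62 (0.0584) in SAM2 and 0.82 pooled (limma adjusted p = 4.56e-04).

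*E2f4*, on chromosome 8 from 106024243 to 106032003 on the plus strand, encodes the E2F of DREAM and was the 1 regulator that fell. It had 4857, 4990.5 and 4701 counts in Empty, 4038, 3957 and 3844 in SAM1 and 4470.0, 4382 and 4537 in SAM2. All 6 Hnrnpk_SAM libraries lay below Empty, SAM1 lowest. The log2 fold change was -0.30 (0.0324, limma adjusted p = 2.11e-06) in SAM1, -0.12 (0.0324, limma adjusted p = 0.00502) in SAM2 and -0.21 pooled (limma adjusted p = 0.016). With every library scaled to the same sum, which moves the median of all genes up by 0.122 pooled and 0.102 in SAM2, it was -0.085 pooled (limma adjusted p = 0.191) and -0.016 in SAM2 (limma adjusted p = 0.681). The pooled call was also lost without Empty replicate 1 (limma adjusted p = 0.0502) or Empty replicate 2 (limma adjusted p = 0.0667).

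*Rbl1*, on chromosome 2 from 156987813 to 157046475 on the minus strand, encodes p107, the pocket protein of cycling cells. It had 1304, 1278 and 1263 counts in Empty, 1681, 1614 and 1643 in SAM1 and 1832, 1854 and 1909.5 in SAM2. Each group stood apart, and of the 8 that rose it was the 1 called higher in SAM2 than in SAM1. The log2 fold change was 0.36 (0.0354) in SAM1, 0.54 (0.0354) in SAM2 and 0.45 pooled (limma adjusted p = 2.24e-04).

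The direct comparison of the lines called 2 regulators higher in SAM2 than in SAM1, where 31.1% of all genes were, and 6 lower, where 29.2% were. *E2f4* (0.18) and *Rbl1* (0.18) were the 2 higher, as SAM2 minus SAM1 on the log2 scale. The 6 lower were *E2f1* (-0.66), *E2f8* (-0.61), *E2f7* (-0.40), *Mybl2* (-0.37), *Foxm1* (-0.25) and *E2f3* (-0.11). *E2f2* and *Lin9* were not called, with the intervals given above. The largest of these differences, that of *E2f1*, left SAM2 at 0.631 of the SAM1 level (standard error 0.0365 on the log2 scale, limma adjusted p = 6.08e-09).

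**Figure D2:**
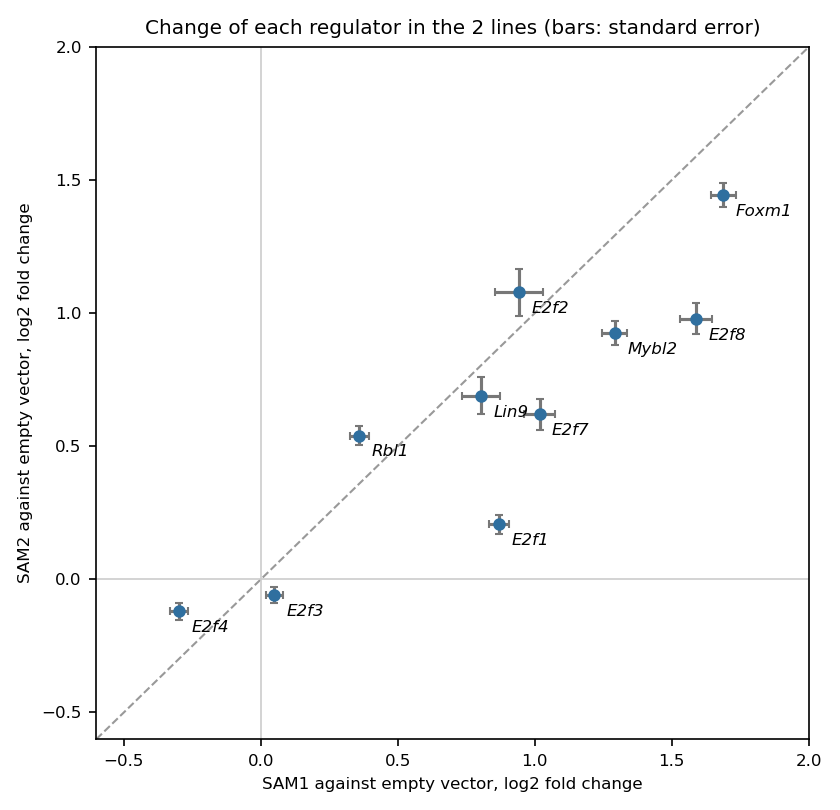
Log2 fold change of each regulator against Empty in SAM1 (horizontal axis) and in SAM2 (vertical axis), with standard errors as bars and equal change as a dashed line; both axes share the 3 Empty libraries. *E2f1*, *E2f8*, *E2f7*, *Mybl2* and *Foxm1* lie below the line, and *Rbl1* and *E2f4* above it.

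Levels of different genes were compared per kilobase of the canonical transcript. *E2f4* was the most abundant of the 10 in every group, at 2425 ± 72.5 normalized counts per kb in Empty, 1973 ± 48.7 in SAM1 and 2232 ± 38.9 in SAM2. *E2f1* came next, at 836.1 ± 34.1, 1528 ± 30.6 and 964.7 ± 24. In Empty the order went on with *E2f3*, *Foxm1*, *Rbl1*, *Lin9*, *E2f7*, *Mybl2*, *E2f8* and *E2f2*, and the libraries of *Foxm1* and *Rbl1* overlapped, as did those of *E2f7* and *Mybl2*. In both lines *Foxm1* stood above *E2f3*, at 892.1 ± 47 in SAM1 and 751.8 ± 4.28 in SAM2 against 276.6 ± 15.3 in Empty, and *Mybl2* stood above *E2f7*. In SAM1 the libraries of *Rbl1* and *Lin9*, and of *Lin9* and *Mybl2*, overlapped. *E2f2* was last in every group, at 22.3 ± 1.13, 43.1 ± 3.61 and 47.3 ± 2.77.

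Ratios within a library do not depend on its scaling, and 3 were computed. The log2 ratio of *E2f1* to *E2f4*, an activator to the DREAM E2F, was -1.14, -1.06 and -1.06 in Empty, 0.0219, 0.108 and 0.115 in SAM1 and -0.721, -0.757 and -0.80 in SAM2. The log2 ratio of *Mybl2* to *E2f4* was -3.32, -3.38 and -3.32 in Empty, between -1.80 and -1.69 in SAM1 and between -2.36 and -2.23 in SAM2. That of *Rbl1* to *Rbl2*, p107 to the p130 of resting cells, was -1.38, -1.24 and -1.43 in Empty, between -1.12 and -0.977 in SAM1 and between -1.05 and -0.986 in SAM2. In all 3 ratios every Hnrnpk_SAM library lay above every Empty library. For the ratios to *E2f4* this had to be so, since these libraries lay above Empty in *E2f1* and *Mybl2* and below it in *E2f4*. The tests of those ratios therefore add no support to the values of the single genes. The permutations also treat both lines as 1 group, although the lines differ. The mean difference was 0.747 for *E2f1* to *E2f4* (two-sided exact permutation test, p = 0.0238, adjusted over the 3 ratios 0.0238). It was 1.32 for *Mybl2* to *E2f4* and 0.317 for *Rbl1* to *Rbl2* (exact permutation p = 0.0119 each, adjusted 0.0179), the smallest p that the 84 ways of labelling 3 of 9 libraries allow. Leaving out any 1 Empty library leaves fewer such ways, and the adjusted exact permutation p then ran from 0.0536 to 0.143. For *E2f1* to *E2f4* it was 0.0714 without any 1 SAM1 library.

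**Figure D3:**
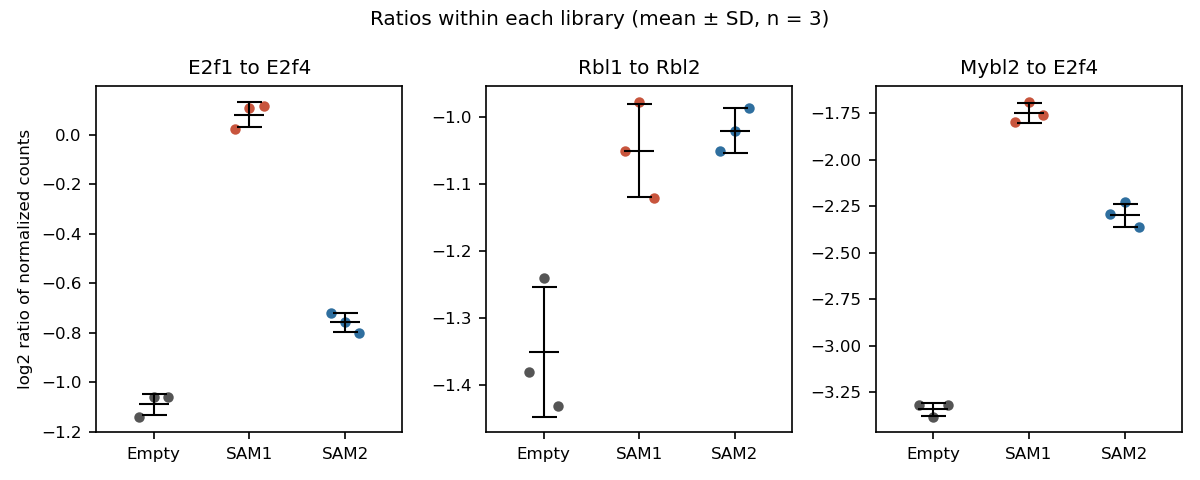
Log2 ratio of the normalized counts of 2 genes within each library (vertical axes, which do not start at 0), by group; points are libraries and bars mean ± SD of 3. In each panel all Hnrnpk_SAM points lie above the Empty points, and the *E2f1* to *E2f4* ratio of SAM2 lies between Empty and SAM1.

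A further 12 genes of the E2F, pocket protein, MuvB and MYB families were set beside the 10, and of these 2 rose, 4 fell and 6 did not pass the test in the pooled comparison, where 26.8% of all genes were called higher and 27.0% lower. In SAM1 5 were called higher and 4 lower, *Myb* among the 5, and in SAM2 4 and 4, counts near the shares of all genes given above for each line. Their median pooled log2 fold change was 0.064. *Rb1*, the retinoblastoma pocket protein, rose by 0.55 (limma adjusted p = 0.00414), from 530.4 ± 32.7 counts in Empty to 690.9 ± 71.6 in SAM1 and 875.4 ± 44.8 in SAM2. It lies on chromosome 14. *Lin54*, the MuvB subunit that binds the CHR, rose by 0.43 (limma adjusted p = 6.58e-04).

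*E2f6*, a repressor E2F that works without pocket proteins, fell by 0.73 (limma adjusted p = 2.79e-06), from 1498 ± 67 counts to 915.4 ± 43.6 in SAM1 and 885.5 ± 28.6 in SAM2. *Lin37*, a MuvB subunit needed for repression by DREAM, fell by 0.51 (limma adjusted p = 0.00107). *E2f5*, the close relative of *E2f4*, fell by 0.30 (limma adjusted p = 0.019), a call lost with libraries scaled to equal sums and without Empty replicate 2 or 3 (adjusted p from 0.0527 to 0.158). *Rbbp4*, a histone-binding subunit shared with other complexes, fell by 0.11 (limma adjusted p = 0.0381), and this call was lost without any 1 of 7 libraries (highest adjusted p 0.155), while its sign turned with equal sums (0.0176) and with quantile normalization (0.0337).

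The DP partners *Tfdp1* (0.044) and *Tfdp2* (0.15), *Rbl2* (0.13), *Lin52* (-0.024) and *Mybl1* (0.085) did not pass the test in the pooled comparison. By line, *Tfdp2* (0.337, limma adjusted p = 6.35e-05) and *Rbl2* (0.209, 0.00216) were called higher in SAM2 only. *Tfdp1* (0.0846, limma adjusted p = 0.0168) and *Mybl1* (0.246, 0.0257) were called higher in SAM1 only, and *Lin52* in neither line. *Rbl2* passed it under 4 alternatives (0.133 to 0.256), *Tfdp1* with equal sums (0.167) and *Tfdp2* in the mean of the lines (0.148). *Myb* had at most 2.05 normalized counts in the Empty and SAM2 libraries and 13.7 to 17.1 in SAM1, so it was in the table through SAM1 alone and no fold is given. Its value does enter the family median given above and the plot of the lists below.

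The genes that the regulators are known to control were described by 2 lists. Of 60 genes of G1/S, 48 rose and 3 fell, with a median log2 fold change of 0.53, and of 77 genes of G2/M, 76 rose and 1 fell, with a median of 1.27. Of all genes 26.8% were called higher and 27.0% lower. These lists were chosen with earlier results of these data known, so the counts describe the lists and are no independent test. Among the G1/S genes *Brca1*, a DNA repair gene, rose by 1.44, *Rrm2*, which makes deoxynucleotides, by 1.39, and *Mcm10*, which starts replication, by 1.33. The 3 that fell were *Wee1*, the kinase that restrains entry into mitosis (-0.74), *Rfc5*, a clamp loader subunit (-0.18), and *Tipin*, a fork protection gene (-0.17). The *Rfc5* call was lost under 8 of the alternatives (adjusted p from 0.0699 to 0.407), and that of *Tipin* with equal sums (0.354).

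Among the G2/M genes *Dlgap5*, a spindle protein, rose by 2.16, *Ccnf*, the F-box cyclin, by 1.99, and *Ckap2l*, a spindle protein, by 1.91, each on the log2 scale. *Pttg1*, which encodes securin, was the 1 that fell (-0.41, limma adjusted p = 2.53e-04). In the promoter windows 37 of the 54 found for G1/S genes held E2F letters, or 68.5%, and 51 of the 71 found for G2/M genes held CHR letters, or 71.8%. The lists were drawn up from known targets, so this describes the lists.

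Between the lines, 34 of the 60 G1/S genes were lower and 10 higher in SAM2 than in SAM1, with a median of -0.14, and 39 of the 77 G2/M genes were lower and 8 higher, with a median of -0.12. Of all genes 29.2% were lower and 31.1% higher. *Rrm2* differed by -0.59 between the lines, close in size to *E2f1*, while *Brca1* differed by -0.044 with a 95% interval of -0.16 to 0.068.

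**Figure D4:**
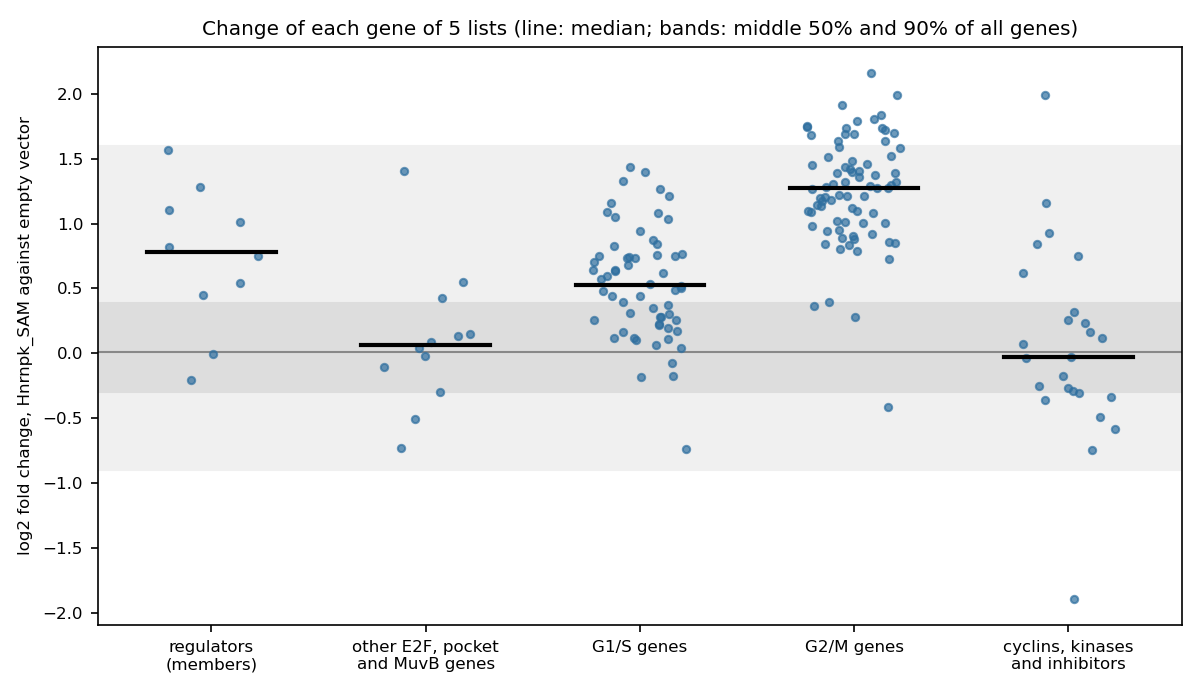
Log2 fold change of Hnrnpk_SAM against Empty (vertical axis) for each gene of 5 lists (horizontal axis); black lines are medians and grey bands hold the middle 50% and 90% of all 15184 genes. The regulators have a median of 0.78, the other family genes (*Myb* among them) 0.064, the G1/S genes 0.53 and the G2/M genes 1.27.

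A list of cyclins, kinases and inhibitors linked to E2F and DREAM did not move one way. It is not a list of upstream genes alone, since *Ccne1*, *Ccne2*, *Cdc25a* and *Ccnf* are also in the G1/S or G2/M lists. Of 25 genes, 9 rose (36.0%) and 10 fell (40.0%), where 26.8% and 27.0% of all genes did, and the median was -0.025. *Trp53*, the p53 gene, rose by 1.16 and *Cdkn2d*, an inhibitor of the cyclin D kinases, by 0.92, and *Ccnf*, counted here as well, by 1.99. *Cdk6*, a cyclin D kinase, fell by 1.89, *Cdkn2b*, which encodes p15, by 0.75, and *Cdkn2a*, which encodes p16 and p19ARF, by 0.58. *Cdkn1a*, which encodes p21, the p53 target that inhibits the kinases acting on pocket proteins, is named after its values were seen. It had 1567 ± 78.3 counts in Empty, 1329 ± 53.8 in SAM1 and 1233 ± 53.2 in SAM2, which is -0.29 on the log2 scale (limma adjusted p = 0.00209, and 0.0509 with equal sums).

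Each regulator was also set beside the 10 nearest listed genes on either side. In the pooled comparison *Foxm1* rose more than all 20 of its neighbours, whose median log2 fold change was 0.0071, and *E2f2* and *Lin9* did so as well (medians -0.073 and -0.21). Within the lines 1 neighbour lay above *Foxm1* in SAM2, 2 above *E2f2* in SAM1 and 2 above *Lin9* in SAM2. Of the 20 neighbours 2 lay above *E2f7* and 3 above *E2f8* in the pooled comparison. *Rbl1* did not stand apart. Its own log2 fold change was 0.45 where its 20 neighbours, between 156611564 and 158174800 on chromosome 2, had a median of 0.35, 12 of them were called higher and 7 lay above it. In SAM1, 12 of the 20 lay above *Rbl1*. *E2f1* and *Mybl2* lie on the same chromosome, whose 1146 listed genes had a median of 0.21, with medians of 0.07 and 0.21 among their own neighbours. Pooled, 3 of the 20 neighbours lay above *E2f1* and 4 above *Mybl2*. In SAM2 the log2 fold change of *E2f1* was 0.207, beside a chromosome median of 0.156. There 6 of its 20 neighbours lay above it, and their median was -0.0622. The fall of *E2f4* went against its neighbours, whose median was 0.24, with 18 of the 20 above it. The part of these regions in the results was not tested.

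**Figure D5:**
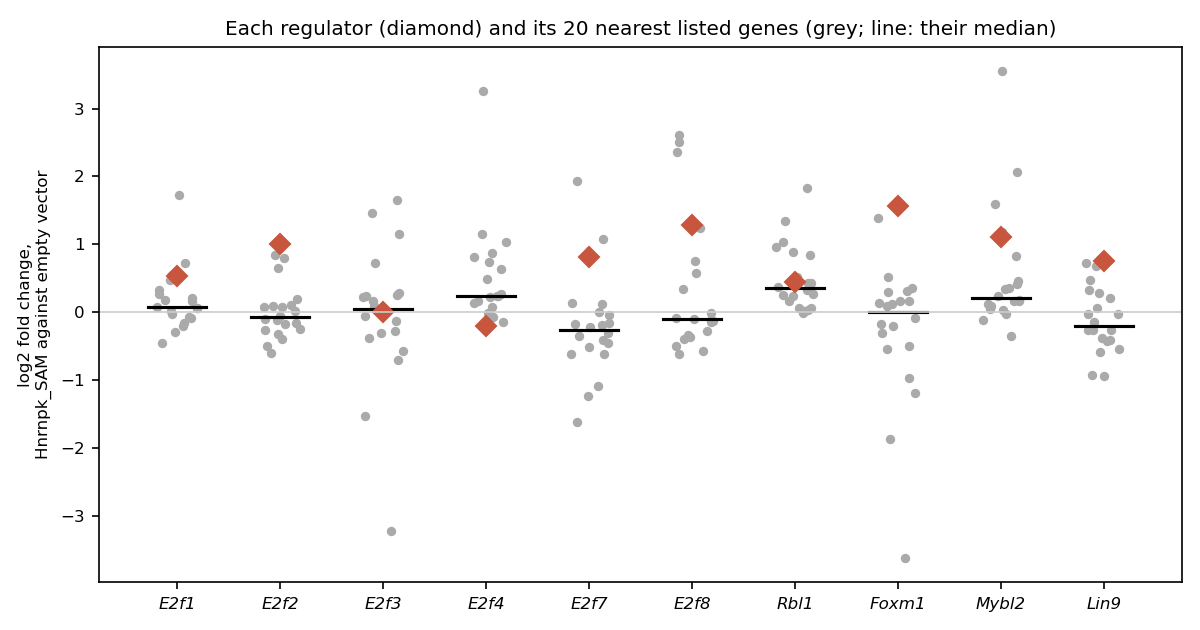
Log2 fold change of Hnrnpk_SAM against Empty (vertical axis) for each regulator (diamond) and its 20 nearest listed genes (grey points; black line, their median). In this pooled comparison *Foxm1*, *E2f2* and *Lin9* lie above all their neighbours, *Rbl1* lies among them and *E2f4* lies below most of them.

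The genes whose log2 values followed *Foxm1* most closely over the 9 libraries were *Anln* (Pearson r = 0.9992), *Cenpe* (0.9991) and *Cntrl* (0.9990). *Anln* and *Cenpe*, which act in cytokinesis and at kinetochores, belong to the G2/M list. For *E2f1* they were *Spp1* (0.9966), *Psmd5* (0.9966) and *Tafa5* (0.9959), and for *E2f4* *Ncln* (0.9924), *Tmem150a* (0.9916) and *Ubxn2b* (0.9890). Among the regulators themselves *Lin9* (0.984) and *Mybl2* (0.983) were closest to *Foxm1*, and *E2f4* (-0.858) was furthest. Over all genes, ordered from the highest r with *Foxm1*, *Lin9* had rank 426, *Mybl2* rank 442 and *E2f4* rank 12426. Many other genes thus followed *Foxm1* more closely than any regulator did. The 9 libraries form 3 groups, so these values describe the differences between groups and carry no test.

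*Foxm1* shares 382 bases with *Rhno1*, a DNA damage response gene on the opposite strand. *Rhno1* had 1036 to 1092 counts in Empty, 1235 to 1309 in SAM1 and 1335 to 1382 in SAM2, a log2 fold change of 0.32 against 1.57 for *Foxm1*. Without the strand setting, reads from the bases shared with *Rhno1* cannot be assigned to either gene. *Foxm1* also overlaps the lncRNA *Gm15862* on the opposite strand over 9469 bases. On its own strand it overlaps *Tex52* over 729 bases and *Gm44596* over 682, where strand cannot separate the reads. None of these is in the deposited table.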

How the data were processed

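Polyadenylated RNA of the 9 libraries was sequenced in paired ends with a directional kit. The authors checked reads with FastQC 0.11.0, aligned them to GRCm39 with TopHat2, counted them with HTSeq on Gencode vM29, kept genes above 10 in at least 30% of samples, and deposited counts divided by DESeq2 size factors, a signal per gene. Whether the counting used strand is not given in the sources used here. All 15184 genes pass that filter, read as at least 3 libraries above 10.

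From these values, limma 3.58.1 (R 4.3.3; lmFit and eBayes with trend) was fitted on log2(value + 1) over all genes, with 2 groups for the pooled comparison and 3 groups for the lines. Whole reads were recovered from the steps of the values (100% whole within 0.01) for edgeR 4.0.16 and DESeq2 1.42.0 as alternatives, which called 8168 and 8468 genes in the pooled comparison beside 8179 by limma. Scripts were tested on simulated counts. Positions come from GENCODE vM39 on GRCm39, where 14791 of the names had 1 match, 68 had several and 325 had none. Named genes were all regulators and family genes, the 3 largest rises and falls of each other list among called genes whose groups do not overlap, the 3 genes most alike to *Foxm1*, *E2f1* and *E2f4*, and *Hnrnpk*. Alternatives were other pseudocounts (0.5 and 8), scalings, filters, tests and groupings, the replicate block and leaving out each library. The members and lists were chosen with earlier results of these data known.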

Additional observations from a re-analysis of the deposited data

Results flagged for a closer look

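Of the 10 regulators 8 differed between the 2 lines by the direct test of SAM2 against SAM1 with limma, in which 31.1% of all genes were called higher and 29.2% lower. As SAM2 minus SAM1 on the log2 scale, *E2f1* differed by -0.663 (adjusted p = 6.08e-09), *E2f8* by -0.609 (1.41e-06), *E2f7* by -0.396 (6.59e-05), *Mybl2* by -0.368 (1.43e-05), *Foxm1* by -0.245 (4.41e-04) and *E2f3* by -0.109 (0.008). *E2f4* differed by 0.178 (adjusted p = 3.88e-04 from limma) and *Rbl1* by 0.18 (6.79e-04). These 8 calls kept their side of the threshold under every alternative tried. Guide, line and any difference in culture cannot be told apart, since each line is 1 set of 3 libraries.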

How the results depend on the processing

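Among the recomputed values of the 10 regulators, 698 kept their direction and side of the threshold, 11 fell below it, 4 rose above it and 7 changed sign. Scaling to equal sums gave 0 regulators lower in the pooled comparison and 0 in SAM2, and quantile normalization gave 2 lower in SAM2. Of the other family genes, equal sums gave 4 higher and 2 lower and the mean of the lines gave 5 higher, 1 of them *Myb*, which is in the table through SAM1 alone, and equal sums left 1 G1/S gene lower. Leaving out 1 library gave 0 to 1 regulators lower in the pooled comparison and 2 to 4 family genes lower. Signs turned for *E2f3* pooled with quantile normalization (0.0143) and equal sums (0.118) and when 1 library was left out (-0.0211 to 0.00987), and in SAM2 with equal sums (0.0448). Equal sums or quantile normalization also turned *Hnrnpk* (0.0912 and 0.159), *Rbbp4* (0.0176 and 0.0337), *Lin52* (0.0984 with equal sums, and -0.0488 to 0.0109 with 1 library left out) and *Mybl1* (-0.00515 with quantile normalization). With 1 library left out, the ratio of *E2f1* to *E2f4* differed by 0.656 to 0.839, *Rbl1* to *Rbl2* by 0.28 to 0.372 and *Mybl2* to *E2f4* by 1.25 to 1.38. Equal sums moved the median of all genes by 0.122 pooled, 0.141 in SAM1 and 0.102 in SAM2. The causes of the other changes were not tested.

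Same-numbered libraries deviated together weakly (mean r 0.0531 over 9 pairs, from 0.00237 to 0.117), and 9 of 9 libraries correlated best with their own number. This is a hint from the data and not from the design, and with correlations this low the numbers were not taken to pair the libraries. With the replicate block, limma called 7343 genes in the pooled comparison beside 8179 without it, the pooled call of *E2f1* was lost (0.539, adjusted p = 0.0807) and so was that of *Rfc5* (adjusted p = 0.0863). With the block 7 regulators were higher and 1 lower in the pooled comparison, and 8 and 1 in each line. Of all 15184 genes the block called 11631 in SAM1 and 11095 in SAM2, either way. Among the 10 regulators the lowest read count was 90, for *E2f2*.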
